A study of Homo sapiens with 16 samples.

Results

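The genes described here are 32 targets and partners of the transcription factor ATF4 in human NCI-H929 cells, an established line from multiple myeloma, chosen by symbol from the 57500 genes of the deposited count tables. All 32 were found and all 32 passed the filter on low counts in both experiments. They fall into 7 transcription factors and feedback genes, 9 enzymes of asparagine, serine, one-carbon and related metabolism, 4 transporters and receptors, and 12 cytosolic tRNA synthetases. Bulk RNA-seq covered 16 libraries, 4 in each of 4 groups. In the first experiment, cells were given compound 27, a degrader that sends the acetyltransferase p300 to the cell's protein breakdown machinery, at 3 nM for 6 h, and the controls were given its vehicle DMSO. In the second, cells labelled p300 KO (knockout) were set beside cells labelled NTC. The labels give no agent or time for these cells, do not spell out NTC, and say neither how the knockout was made nor whether it is 1 clone. They do not say whether the replicates were separate cultures, so the spread behind each p-value may be technical. All libraries share the same cell line, and the experiments share no libraries.

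ATF4 is the main transcriptional arm of the integrated stress response. Kinases that sense a shortage of amino acids, misfolded protein in the endoplasmic reticulum (ER), double-stranded RNA or a lack of heme phosphorylate the translation factor eIF2, which slows protein synthesis in general while the ATF4 messenger is translated more. ATF4 protein then binds composite C/EBP-ATF sites and raises genes for amino acid synthesis, amino acid import and tRNA charging. Plasma cells and myeloma cells secrete or synthesise much protein, so these genes are active in them. Because ATF4 is controlled largely in translation, its messenger level is not a measure of its protein.

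Several member promoters carry the short composite element that ATF4 binds. It is shown here for the 7 members that hold it and were called in at least 1 experiment below. AARS1, CARS1, CEBPG and NARS1 hold it too and were called in neither experiment, so the element occurred with and without a call. The letters searched were TGATGNAA on both strands, in RefSeq windows of 300 bases from 250 before to 50 after each start (build GRCh38.p14). Each line gives 30 bases in the direction of the gene, with the 8 matching bases in capitals.
ASNS: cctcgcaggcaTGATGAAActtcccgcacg
CHAC1: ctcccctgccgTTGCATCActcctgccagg
SLC3A2: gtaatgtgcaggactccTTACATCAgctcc
GARS1: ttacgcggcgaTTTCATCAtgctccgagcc
IARS1: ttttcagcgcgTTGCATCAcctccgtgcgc
MARS1: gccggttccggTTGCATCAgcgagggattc
TARS1: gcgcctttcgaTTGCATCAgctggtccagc
The printed stretches lie at chr7:97872458-97872487 (ASNS, minus strand), chr15:40953251-40953280 (CHAC1, plus strand), chr11:62881719-62881748 (SLC3A2, plus strand), chr7:30594834-30594863 (GARS1, plus strand), chr9:92293692-92293721 (IARS1, minus strand), chr12:57488053-57488082 (MARS1, plus strand) and chr5:33440956-33440985 (TARS1, plus strand). In ASNS the match read on the strand of the gene, and in the other 6 on the opposite strand. Of the 26 members in the RefSeq table, 11 held a match (42.3%), against 4.46% of all 27305 genes and 3.62% of all 35116 windows. By role these were 7 of 10 synthetases, 2 of 7 transcription factors and feedback genes, 1 of 6 enzymes and 1 of 3 transporters and receptors. The members were chosen as targets and partners of ATF4, so their higher share is no independent support. In lists of related genes that are no members, 4 of 9 other amino acid transporters, 3 of 9 other ATF4 targets, 1 of 8 eIF2 kinases and phosphatase subunits, 1 of 12 other one-carbon and cysteine genes and 0 of 9 other cytosolic synthetases and scaffold proteins held it. It was also held by 1 of 14 mitochondrial synthetases and 1 of 12 ER folding genes. RefSeq starts need not be those of the annotation used for counting, and a match is a description of these letters only.

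Depth ran from 12.6 M to 23.1 M counts per library (M, mega). A pair of libraries stood apart by their share of mitochondrially encoded counts, 64.9% in degrader 2 and 47.7% in p300 KO 1, against 5.99 to 6.96% in the other degrader libraries, 13.4 to 23.5% in DMSO, 8.91 to 10.3% in NTC and 10.2 to 11.4% in the other p300 KO libraries. The counts of genes called are therefore given with and without degrader 2 or p300 KO 1, and the plot of fold changes shows both values for every member. The EP300 transcript, which encodes p300, was measured at 100, 92.5, 91.03 and 94.6 CPM in NTC 1 to 4 and 50.2, 38.1, 34.04 and 37.4 CPM in p300 KO 1 to 4. CPM are counts per M counts of the library, here scaled by TMM, edgeR's correction for library composition. EP300 was lower in each p300 KO library than in each NTC library (−1.25 ± 0.11 as log2 fold change with its SE, adjusted p = 2.20e-04 by Benjamini-Hochberg, edgeR's quasi-likelihood test), and transcript remained. In CPM of all counts, without TMM, the 8 plasma cell markers summed to 10807 to 16572 in the other 14 libraries, with lower sums of 3429 in degrader 2 and 7243 in p300 KO 1, and none was at 0 in every library of a group. JCHAIN made up most of the plasma cell sums (group means 8505 to 9487 CPM), so they say little of the other markers. On that scale the marker sums of T cells and NK cells were at most 53.4 and 88.2. In DMSO most of these came from CD3E (mean 40.3 CPM) and NCAM1 (mean 54.9 CPM). In bulk RNA, fewer cells of a type and less RNA per cell cannot be told apart.

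Per base of exon, ATF4 and ATF5 were the most abundant members and SLC7A11 the least. In DMSO, ATF4 stood at 232 ± 13.5 and ATF5 at 212 ± 10.3 RPKM (CPM per kilobase of exon, with TMM run over all 16 libraries rather than within an experiment; SD, n = 4), a gap smaller than their summed SDs, and SLC7A11 at 0.275 ± 0.0469 RPKM. In NTC, ATF5 at 151 ± 8.58 RPKM lay above ATF4 at 135 ± 2.69 RPKM. SLC7A5 followed in both controls, at 79.0 ± 5.29 RPKM in DMSO and 75.03 ± 3.71 RPKM in NTC. The 12 synthetases ran from 7.22 (CARS1) to 70.6 (NARS1) RPKM in DMSO. In CPM, VLDLR, CTH, CHAC1 and SLC7A11 were lowest in DMSO and rest on the fewest counts.

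**Figure D1:**
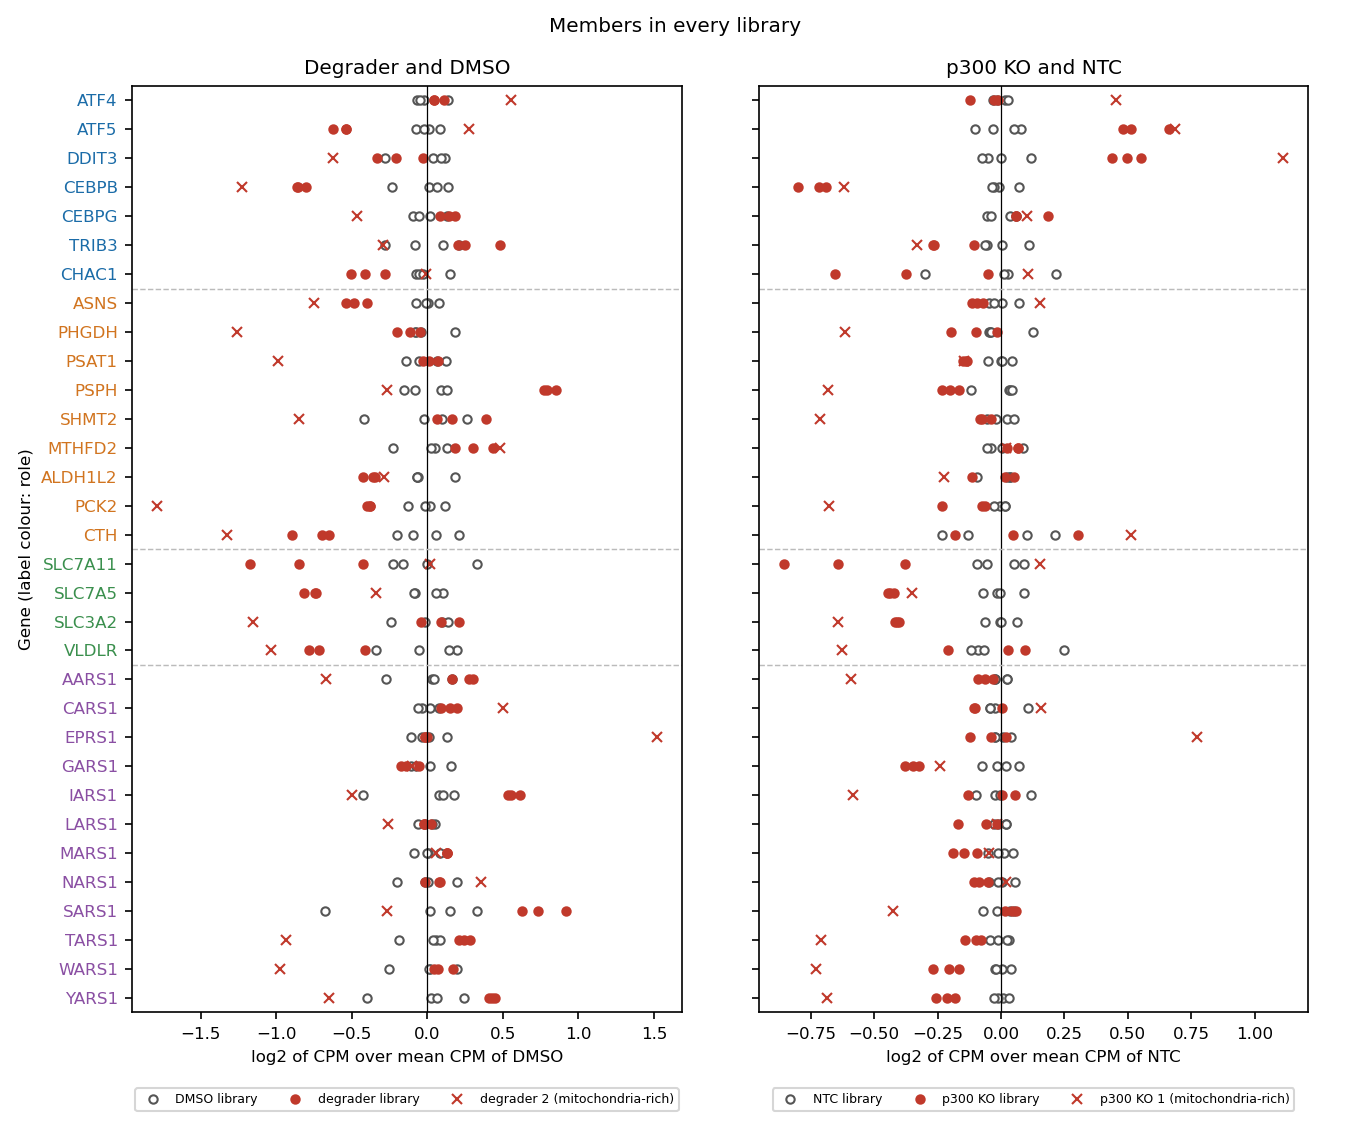
Each point is 1 library, plotted as log2 of its TMM-scaled CPM over the mean CPM of the control group (DMSO on the left, NTC on the right), for the 32 members in 4 role groups split by dashed lines. Crosses are degrader 2 and p300 KO 1, which lie apart from their group mates for most members, with EPRS1 at 591 CPM in degrader 2 against 203 CPM in degrader 1.

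With the degrader, CEBPB, ASNS, CTH and SLC7A5 fell and no member rose when all libraries were used. That is 4 members lower against a background of 3.12% of the 15872 genes tested, and 0 higher against 1.64% (4.76% in either direction), at an adjusted p under 0.05 by Benjamini-Hochberg with edgeR's quasi-likelihood test. The libraries of the groups did not overlap for 7 members that were lower (9.24% of genes) and 2 that were higher (7.6%). At an unadjusted p under 0.05, 9 members passed in either direction, 2 of them higher (PSPH and MTHFD2), where 20.7% of all genes passed, and DESeq2 called 1 higher, MTHFD2. Without degrader 2, 10 members fell against a background of 20.3% and 6 rose against 18.2% of 16297 genes, so that 16 of 32 passed where 38.5% of genes did. The members' median log2 fold change was −0.08 with all libraries and 0.03 without degrader 2, where the median of all genes was 0.05 and −0.04. Without degrader 2, there was no overlap for 10 members that were lower (22.2% of genes) and 8 that were higher (22.6%).

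In the p300 KO, CEBPB, SLC7A5, SLC3A2 and GARS1 fell and ATF5 and DDIT3 rose. That is 4 lower against a background of 10.7% and 2 higher against 6.23% of 17350 genes (17% in either direction). The libraries did not overlap for 12 members that were lower (16.1% of genes) and 3 that were higher (12.5%). Without p300 KO 1, 11 members fell (background 21.8%) and 2 rose (19.1%), so that 13 of 32 passed where 40.9% of 17706 genes did. The members' median was −0.14 with all libraries and −0.09 without p300 KO 1, against 0.02 and 0.00 over all genes. Without p300 KO 1, there was no overlap for 16 members that were lower (22.1% of genes) and 3 that were higher (20%).

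Scaling and the mitochondrial share bear on these counts. With total counts in place of TMM, the median of all genes moved by −0.14 with the degrader, by −0.16 in the KO and by 0.11 with the degrader without degrader 2, and the share of called genes that were higher went from 34.4 to 11.6%, from 36.7 to 4.82% and from 47.3 to 63.1%. Under that scaling 0 members were called with the degrader, and in the KO only 2 were called lower and 0 higher. The degrader libraries other than degrader 2 had lower mitochondrial shares than every DMSO library, and the part of this difference in the fold changes was not tested.

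ATF4 itself passed the test in neither experiment. Its level was 504, 519, 580.4 and 509 CPM in DMSO 1 to 4 and 544, 776, 545 and 570.2 CPM in degrader 1 to 4 (log2 fold change 0.20 ± 0.15, adjusted p = 0.495). Only degrader 2 lay well above the rest, and without it the log2 fold change was 0.06 ± 0.08 with a 95% interval of −0.12 to 0.24. In the other experiment it was 364, 372, 360.3 and 375 CPM in NTC 1 to 4 and 504, 365, 361 and 338 CPM in p300 KO 1 to 4. Again the mitochondria-rich library was the high one, and without it the value was −0.06 ± 0.05 (95% interval −0.15 to 0.04). CEBPG, a dimerisation partner of ATF4, passed in none of the fits either (0.13 ± 0.08 without degrader 2 and 0.10 ± 0.06 without p300 KO 1).

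CEBPB, a C/EBP factor that shares composite sites with ATF4, was the member lowered with the smallest p in both experiments when the mitochondria-rich libraries were left out. It lies on chromosome 20 at 50190734 to 50192689 in the deposited GRCh38 annotation. It was measured at 114, 135, 147 and 139.6 CPM in DMSO 1 to 4 and 73.98, 57.03, 76.5 and 73.5 CPM in degrader 1 to 4. All degrader libraries lay below all DMSO libraries, and CEBPB fell with a log2 fold change of −0.93 ± 0.14 (adjusted p = 0.00818 by Benjamini-Hochberg, edgeR's quasi-likelihood test). The call was lost without degrader 1 (adjusted p = 0.0521), and without degrader 2 the value was −0.85 ± 0.09 (adjusted p = 1.56e-05). In the KO experiment it was measured at 126, 119, 118 and 117 CPM in NTC 1 to 4 and 78.2, 68.9, 74.4 and 72.95 CPM in p300 KO 1 to 4. The groups did not overlap there, and the log2 fold change was −0.71 ± 0.07 (adjusted p = 2.48e-04), or −0.74 ± 0.05 without p300 KO 1.

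ATF5, a factor translated through the same upstream reading frame mechanism as ATF4, moved in opposite directions. It was measured at 538, 600.4, 571 and 557 CPM in DMSO 1 to 4 and 389, 686, 367 and 391 CPM in degrader 1 to 4. The degrader libraries other than degrader 2 lay below all DMSO libraries and degrader 2 above them. The log2 fold change was −0.31 ± 0.21 (adjusted p = 0.456) with all libraries and −0.58 ± 0.08 without degrader 2, where ATF5 fell (adjusted p = 1.56e-04, edgeR's quasi-likelihood test). In the KO experiment, ATF5 was measured at 509.97, 500.2, 473 and 449 CPM in NTC 1 to 4 and 777, 765, 689 and 674 CPM in p300 KO 1 to 4. Every KO library was above every NTC library, and ATF5 rose with a log2 fold change of 0.59 ± 0.08 (adjusted p = 0.00159), or 0.55 ± 0.05 without p300 KO 1. ATF5 shares 626 of its 2954 exon bases (21.2%) with NUP62 on the other strand. With all libraries NUP62 passed in neither experiment (0.05 with the degrader and 0.08 in the KO). It had −0.36 without degrader 2 (adjusted p = 0.00296, edgeR's quasi-likelihood test) and −0.04 without p300 KO 1 (0.520). The use of strand in counting is not stated, so reads in that stretch cannot be told apart.

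DDIT3, which encodes the stress factor CHOP, was measured at 7.80, 8.45, 7.53 and 7.40 CPM in NTC 1 to 4 and 16.9, 10.99, 10.5 and 11.4 CPM in p300 KO 1 to 4. All KO libraries lay above all NTC libraries, with p300 KO 1 the highest, and DDIT3 rose with a log2 fold change of 0.66 ± 0.15 (adjusted p = 0.0165, edgeR's quasi-likelihood test). The call was lost without NTC 3 (0.0544) or NTC 4 (0.0577), and without p300 KO 1 the value was 0.49 ± 0.10 (adjusted p = 4.47e-05). With the degrader, DDIT3 was measured at 15.7, 12.6, 16.5 and 16.2 CPM in DMSO 1 to 4 and 13.2, 9.88, 12.1 and 14.9 CPM in degrader 1 to 4 and did not pass (log2 fold change −0.27 ± 0.15). DDIT3 shares 355 of its 1266 exon bases (28.0%) with MARS1 on the other strand. MARS1 had a mean of 2970 counts per library, against 235.5 for DDIT3. In the KO, MARS1 had −0.12 with all libraries (adjusted p = 0.209, edgeR's quasi-likelihood test) and −0.14 without p300 KO 1 (0.0164). The use of strand in counting is not stated, so reads in that stretch cannot be told apart.

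The feedback genes passed only without the mitochondria-rich libraries. TRIB3, a pseudokinase that restrains ATF4, was measured at 13.2, 13.2, 14.9 and 13.8 CPM in NTC 1 to 4 and 10.95, 12.8, 11.5 and 11.4 CPM in p300 KO 1 to 4, and the groups did not overlap. It fell without p300 KO 1 (log2 fold change −0.21 ± 0.09, adjusted p = 0.0414), and 4 of 7 further leave-outs of 1 library ended that call. So did DESeq2's Wald test (0.0933) and edgeR's test with no filter on low counts (0.117). CHAC1, which breaks down glutathione, was measured at 7.30, 7.40, 8.50 and 7.54 CPM in DMSO 1 to 4 and 5.76, 7.63, 5.41 and 6.33 CPM in degrader 1 to 4. It fell without degrader 2 (−0.40 ± 0.12, adjusted p = 0.0192), and that call ended without degrader 1 (0.0809) or degrader 3 (0.117). It also ended with total counts (0.0768) and with no filter on low counts (0.0684).

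**Figure D2:**
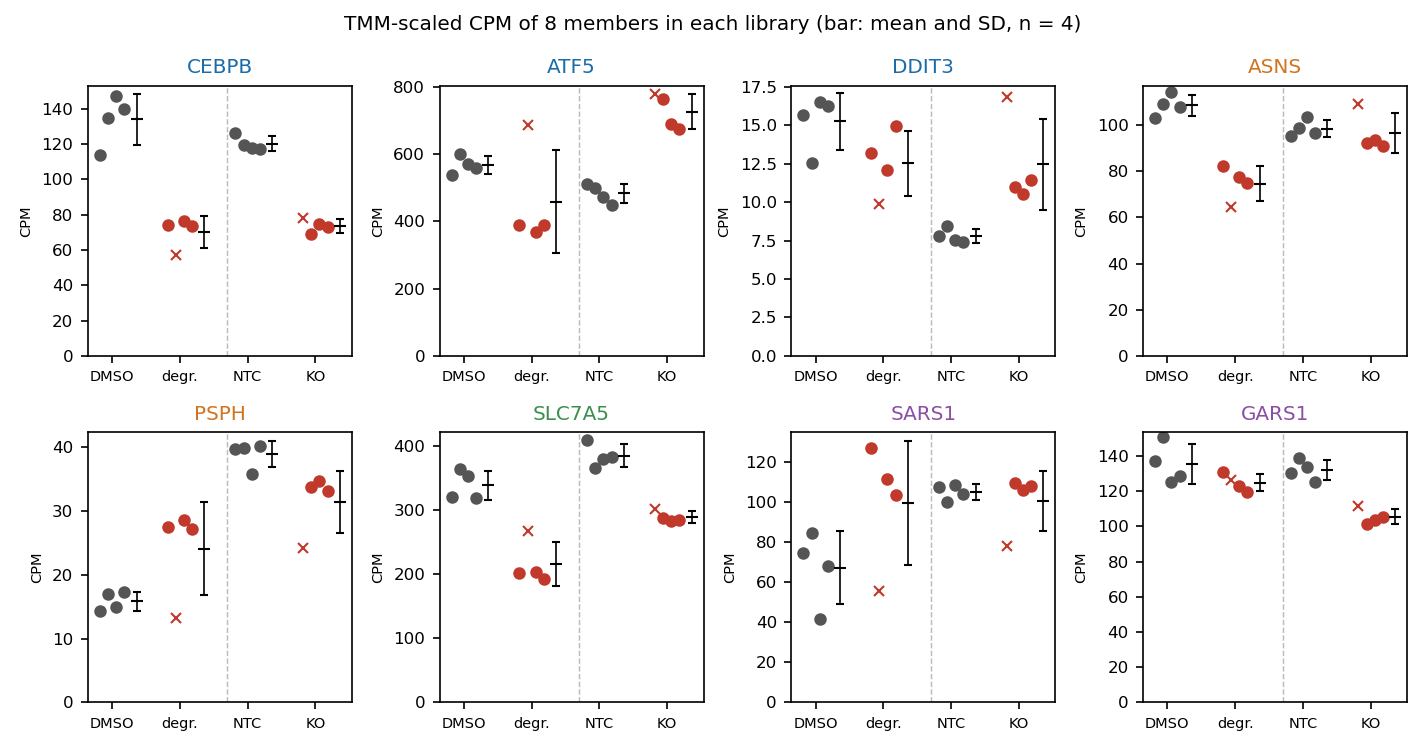
TMM-scaled CPM of 8 members in every library, with controls in grey, degrader and p300 KO in red, degrader 2 and p300 KO 1 as crosses, and the mean with its SD (n = 4) beside each group. CEBPB lies between 57.03 and 76.5 CPM with the degrader, below every DMSO library, while ATF5 lies above every NTC library in the KO.

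Among the 9 enzymes, genes for asparagine and cysteine synthesis fell with the degrader, and PSPH rose without degrader 2. ASNS, the asparagine synthetase, was measured at 103, 109, 114 and 108 CPM in DMSO 1 to 4 and 82.1, 64.5, 77.4 and 74.9 CPM in degrader 1 to 4. The groups did not overlap and ASNS fell with a log2 fold change of −0.54 ± 0.11 (adjusted p = 0.0321 by Benjamini-Hochberg, edgeR's quasi-likelihood test). CTH, which makes cysteine from cystathionine, was measured at 4.49, 5.53, 4.99 and 4.16 CPM in DMSO 1 to 4 and 2.95, 1.91, 3.04 and 2.57 CPM in degrader 1 to 4. It fell with a log2 fold change of −0.84 ± 0.19 (adjusted p = 0.0405), again with no overlap. Both calls were lost whenever 1 of the other 7 libraries was left out (highest adjusted p 0.141 for ASNS and 0.136 for CTH), and both were called without degrader 2, with log2 fold changes of −0.48 ± 0.08 and −0.75 ± 0.16 (adjusted p = 4.75e-04 and 0.00272). In the KO neither passed, with −0.10 ± 0.05 and 0.06 ± 0.16 without p300 KO 1.

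PSPH, the phosphatase of the last step of serine synthesis, was measured at 14.3, 16.9, 14.98 and 17.3 CPM in DMSO 1 to 4 and 27.5, 13.2, 28.6 and 27.1 CPM in degrader 1 to 4. The degrader libraries other than degrader 2 lay above all DMSO libraries, and degrader 2 lay below them. PSPH was also lower in DMSO 1 and 3, with mitochondrial shares of 19.7 and 23.5%, than in DMSO 2 and 4 (13.4 and 15.5%). The part of the mitochondrial share in the PSPH values was not tested. PSPH rose with a log2 fold change of 0.80 ± 0.10 without degrader 2 (adjusted p = 3.25e-05), against 0.62 ± 0.22 with it (adjusted p = 0.159, edgeR's quasi-likelihood test). In the other experiment it was measured at 39.8, 39.8, 35.8 and 40.1 CPM in NTC 1 to 4 and 24.2, 33.8, 34.6 and 33.1 CPM in p300 KO 1 to 4. All KO libraries were lower, and PSPH fell without p300 KO 1 (−0.20 ± 0.06, adjusted p = 0.00728).

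The enzymes of the earlier serine steps did not pass with the degrader. PHGDH, which opens the pathway, had −0.13 ± 0.09 (95% interval −0.33 to 0.07) and PSAT1, the transaminase between them, 0.01 ± 0.09 (95% interval −0.17 to 0.19) without degrader 2. SHMT2, the mitochondrial enzyme that converts serine to glycine, had 0.20 ± 0.14. In the KO, PSAT1 was measured at 55.5, 55.6, 57.1 and 53.6 CPM in NTC 1 to 4 and 50.1, 49.98, 50.5 and 50.4 CPM in p300 KO 1 to 4. It fell without p300 KO 1 (−0.14 ± 0.05, adjusted p = 0.0330), and 6 of 7 further leave-outs ended that call, as did no filter on low counts (0.143). PHGDH and SHMT2 passed in none of these fits.

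The mitochondrial folate enzymes split. MTHFD2, a dehydrogenase of mitochondrial one-carbon metabolism, was measured at 118, 143, 151 and 140.3 CPM in DMSO 1 to 4 and 186, 193, 170.2 and 157 CPM in degrader 1 to 4. Its groups did not overlap, and it rose without degrader 2 (0.30 ± 0.10, adjusted p = 0.0237), a call that 4 of 7 further leave-outs ended. ALDH1L2, a mitochondrial formyltetrahydrofolate dehydrogenase, was measured at 77.8, 77.3, 92.2 and 77.2 CPM in DMSO 1 to 4 and 63.9, 66.4, 63.2 and 60.2 CPM in degrader 1 to 4. It fell without degrader 2 (−0.39 ± 0.09, adjusted p = 0.00347), as did PCK2, the mitochondrial phosphoenolpyruvate carboxykinase (−0.40 ± 0.09, adjusted p = 0.00279). PCK2 was at 16.99 CPM in degrader 2 and at 44.4 to 45.2 CPM in the other 3. In the KO none of the 9 enzymes passed with all libraries by edgeR's quasi-likelihood test, 2 had an unadjusted p under 0.05 (33.6% of all genes), and DESeq2 called none.

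SLC7A5 (LAT1), the transporter of large neutral amino acids, fell in both experiments. It was measured at 321, 364, 353 and 319 CPM in DMSO 1 to 4 and 203, 268, 203 and 192 CPM in degrader 1 to 4. The degrader libraries were all below the DMSO libraries, with degrader 2 nearest to them, and the log2 fold change was −0.65 ± 0.14 (adjusted p = 0.0367 by Benjamini-Hochberg, edgeR's quasi-likelihood test). The call was lost whenever 1 of the other 7 libraries was left out (highest adjusted p 0.131) and was made without degrader 2 (−0.77 ± 0.09, adjusted p = 1.57e-05). In the KO experiment, SLC7A5 was measured at 409.8, 366, 381 and 384 CPM in NTC 1 to 4 and 302, 287, 283 and 285 CPM in p300 KO 1 to 4. There it fell with a log2 fold change of −0.41 ± 0.07 (adjusted p = 0.00353), again with no overlap, or −0.44 ± 0.05 without p300 KO 1.

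SLC3A2 (4F2hc), the heavy chain that pairs with SLC7A5 and SLC7A11, fell in the KO. It was measured at 191, 183, 191 and 199.6 CPM in NTC 1 to 4 and 122, 145, 143 and 144 CPM in p300 KO 1 to 4. No KO library reached an NTC library, and the log2 fold change was −0.46 ± 0.07 (adjusted p = 0.00364, edgeR's quasi-likelihood test), or −0.41 ± 0.05 without p300 KO 1. With the degrader it was measured at 218, 224, 173 and 202 CPM in DMSO 1 to 4 and 217, 91.5, 236 and 198 CPM in degrader 1 to 4. Degrader 2 was far below the other degrader libraries, and without it the difference was 0.08 ± 0.10 with a 95% interval of −0.14 to 0.30.

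SLC7A11 (xCT), the cystine and glutamate exchanger, was measured at 2.05, 2.15, 3.02 and 2.40 CPM in DMSO 1 to 4 and 1.07, 2.43, 1.79 and 1.33 CPM in degrader 1 to 4. Degrader 2 lay among the DMSO libraries and the other 3 below them. In the KO experiment it was measured at 4.43, 4.01, 4.55 and 4.11 CPM in NTC 1 to 4 and 4.75, 3.28, 2.74 and 2.36 CPM in p300 KO 1 to 4, where p300 KO 1 lay above every NTC library and the other 3 below. SLC7A11 fell without those libraries, with log2 fold changes of −0.78 ± 0.24 (adjusted p = 0.0196) with the degrader and −0.61 ± 0.15 (adjusted p = 9.97e-04) in the KO, and the first of these calls ended without degrader 1 (0.107) or degrader 4 (0.065). VLDLR, a lipoprotein receptor raised by ATF4 in other cells, was measured at 5.30, 3.66, 5.10 and 4.45 CPM in DMSO 1 to 4 and 2.81, 2.25, 2.68 and 3.47 CPM in degrader 1 to 4. It fell without degrader 2 (−0.63 ± 0.18, adjusted p = 0.0122), and that call ended without degrader 1 (0.058) or degrader 3 (0.0713).

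**Figure D3:**
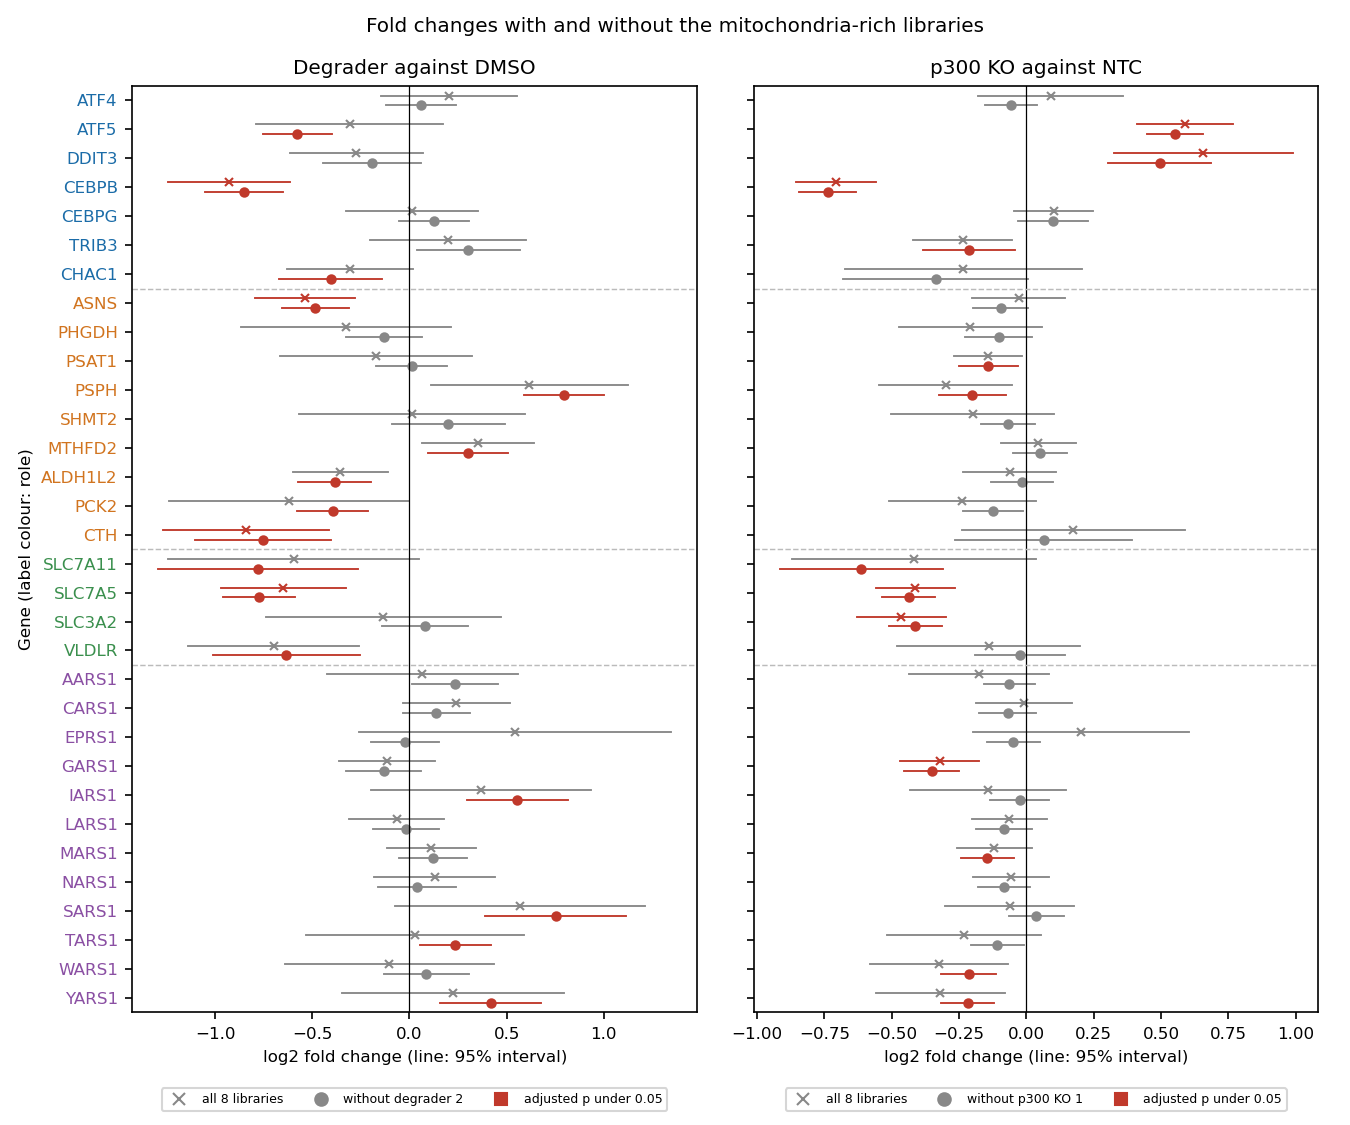
Log2 fold change with its 95% interval for each member, degrader over DMSO on the left and p300 KO over NTC on the right, with all 8 libraries (crosses) and without degrader 2 or p300 KO 1 (circles), red where the adjusted p was under 0.05. The intervals are narrower without these libraries for most members, and the 9 members grey in both panels under both choices include ATF4 and PHGDH.

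Of the 12 tRNA synthetases, which charge tRNAs with their amino acids, none passed with the degrader when all libraries were used (edgeR's quasi-likelihood test). Of all genes, 4.76% passed. None of the 12 had an unadjusted p under 0.05, where 20.7% of all genes did, and DESeq2 called none. Without degrader 2, SARS1, IARS1, YARS1 and TARS1 rose (4 of 12, where 18.2% of all genes were higher and 38.5% were called in either direction), 8 did not pass and none fell. The median of the 12 was 0.13, against −0.04 over all genes. In the KO, 1 synthetase, GARS1, fell with all libraries, where 10.7% of all genes fell. Without p300 KO 1, GARS1, WARS1, YARS1 and MARS1 fell (21.8% of all genes did) and none rose, with a median of −0.08 against 0.00.

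SARS1, the seryl-tRNA synthetase, was measured at 74.4, 84.3, 41.9 and 68.02 CPM in DMSO 1 to 4 and 127, 55.6, 111 and 104 CPM in degrader 1 to 4. Degrader 2 lay among the DMSO libraries, and the other 3 were above all of them. Without degrader 2, SARS1 rose with a log2 fold change of 0.75 ± 0.17 (adjusted p = 0.00352, edgeR's quasi-likelihood test). IARS1, the isoleucyl-tRNA synthetase, was measured at 123, 131, 86.8 and 125 CPM in DMSO 1 to 4 and 169, 82.3, 178 and 170.5 CPM in degrader 1 to 4. Degrader 2 was below all DMSO libraries and the other 3 above all of them, and IARS1 rose without degrader 2 with a log2 fold change of 0.56 ± 0.12 (adjusted p = 0.00284). YARS1, the tyrosyl-tRNA synthetase, was measured at 141, 164, 105 and 145 CPM in DMSO 1 to 4 and 187, 88.2, 189 and 184 CPM in degrader 1 to 4. It rose with a log2 fold change of 0.42 ± 0.12 (adjusted p = 0.0147). TARS1, the threonyl-tRNA synthetase, rose by 0.24 ± 0.09 on the log2 scale (adjusted p = 0.0424), and 5 of 7 further leave-outs ended its call.

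SARS1, IARS1 and YARS1 were lowest among the DMSO libraries in DMSO 3, which also had the highest mitochondrial share of that group (23.5%). They were low in degrader 2 and p300 KO 1 too, where IARS1 stood at 82.3 and 83.4 CPM. The 3 calls were kept when DMSO 3 was left out as well as degrader 2. The other DMSO libraries (13.4 to 19.7%) still had higher mitochondrial shares than degrader 1, 3 and 4 (5.99 to 6.96%). That leave-out therefore cannot test the part of the mitochondrial share in these values, which was not tested. EPRS1, the fused glutamyl-prolyl-tRNA synthetase, went the other way, with 191, 201, 226 and 207 CPM in DMSO 1 to 4 and 203, 591, 204 and 205 CPM in degrader 1 to 4. Degrader 2 alone stood apart, and the log2 fold change was 0.54 ± 0.36 with it and −0.02 ± 0.08 without it. In p300 KO 1 it was 326 CPM against 175 to 194 CPM in the other 3.

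GARS1, the glycyl-tRNA synthetase, was measured at 130.4, 139, 134 and 125 CPM in NTC 1 to 4 and 112, 102, 104 and 105 CPM in p300 KO 1 to 4. All KO libraries were below all NTC libraries, and GARS1 fell with a log2 fold change of −0.32 ± 0.06 (adjusted p = 0.0104, edgeR's quasi-likelihood test), or −0.35 ± 0.05 without p300 KO 1. YARS1 was measured at 174, 172, 169.8 and 177 CPM in NTC 1 to 4 and 107, 153, 149 and 145 CPM in p300 KO 1 to 4. WARS1, the tryptophanyl-tRNA synthetase, was measured at 117, 119.8, 115 and 115 CPM in NTC 1 to 4 and 70.3, 101, 96.7 and 104 CPM in p300 KO 1 to 4. In both the groups did not overlap and p300 KO 1 was the lowest library, and they fell without it, with log2 fold changes of −0.22 ± 0.05 (adjusted p = 3.02e-04) and −0.21 ± 0.05 (adjusted p = 5.77e-04). MARS1, the methionyl-tRNA synthetase, had −0.14 ± 0.05 (adjusted p = 0.0164). Its call ended without NTC 2 (0.0552) or p300 KO 4 (0.0786), and with no filter on low counts (0.0745). AARS1, CARS1, EPRS1, LARS1 and NARS1 passed in neither experiment, with or without the mitochondria-rich libraries, and their values without them ran from −0.02 ± 0.08 (EPRS1) to 0.24 ± 0.10 (AARS1) with the degrader and from −0.08 ± 0.05 (NARS1) to −0.05 ± 0.05 (EPRS1) in the KO.

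The effects of the 2 experiments were compared directly, as the KO effect minus the degrader effect in 1 fit over all 16 libraries. This set 6 h of p300 degradation beside the labelled knockout, whose duration the labels do not give. With all libraries 4 members passed, against a background of 6.58% of 18068 genes, and all 4 differences were positive (background 2.82% positive and 3.76% negative). ATF5 differed by a log2 value of 0.86 ± 0.22 (adjusted p = 0.0272), DDIT3 by 0.88 ± 0.20 (0.0147), CTH by 0.96 ± 0.25 (0.0293) and ASNS by 0.46 ± 0.13 (0.0383, by Benjamini-Hochberg after edgeR's quasi-likelihood test). In leave-outs of 1 library DDIT3 kept its call, ATF5 lost it in 7 (highest adjusted p 0.064), CTH in 7 (up to 0.0713) and ASNS in 14 of 16 (up to 0.0928).

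Without degrader 2 and p300 KO 1, 7 differences were positive and 10 negative among those that passed, against backgrounds of 15.3% and 16.7% (32% in either direction). ATF5 had the largest positive difference, 1.10 ± 0.11 (adjusted p = 2.72e-08), and PSPH the largest negative one, −1.02 ± 0.11 (adjusted p = 2.83e-07). All 12 synthetases had a negative difference and 7 of them passed, with the largest in SARS1 (−0.74 ± 0.19, adjusted p = 0.00477, edgeR's quasi-likelihood test), YARS1 (−0.66 ± 0.14, adjusted p = 9.22e-04) and IARS1 (−0.61 ± 0.15, adjusted p = 0.00260). Also negative were 15 of 17 mitochondrial synthetases, 10 of 12 ER folding genes and 7 of 11 other cytosolic synthetases and scaffold proteins. Of these, 7, 7 and 5 were called negative. Other one-carbon and cysteine genes had 7 negative and 7 positive differences, and the median of all genes was 0.00. The part of the mitochondrial share in the values of PSPH, SARS1, YARS1 and IARS1 was not tested. SLC3A2 differed by −0.52 ± 0.12 (adjusted p = 0.00206) and TRIB3 by −0.54 ± 0.15 (adjusted p = 0.00857). For CEBPB the difference was 0.08 ± 0.11, with a 95% interval of −0.14 to 0.30, and for SLC7A5 it was 0.31 ± 0.10 (adjusted p = 0.0193).

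Read gene by gene without these 2 libraries, CEBPB, SLC7A5 and SLC7A11 fell in both experiments and no member rose in both. ATF5 fell with the degrader and rose in the KO, and PSPH and YARS1 did the reverse. DDIT3 rose in the KO alone by its call, GARS1, MARS1, PSAT1, SLC3A2, TRIB3 and WARS1 were called lower in the KO and not with the degrader, and ALDH1L2, ASNS, CHAC1, CTH, PCK2 and VLDLR were called lower with the degrader and not in the KO. AARS1, ATF4, CARS1, CEBPG, EPRS1, LARS1, NARS1, PHGDH and SHMT2 were called in neither.

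**Figure D4:**
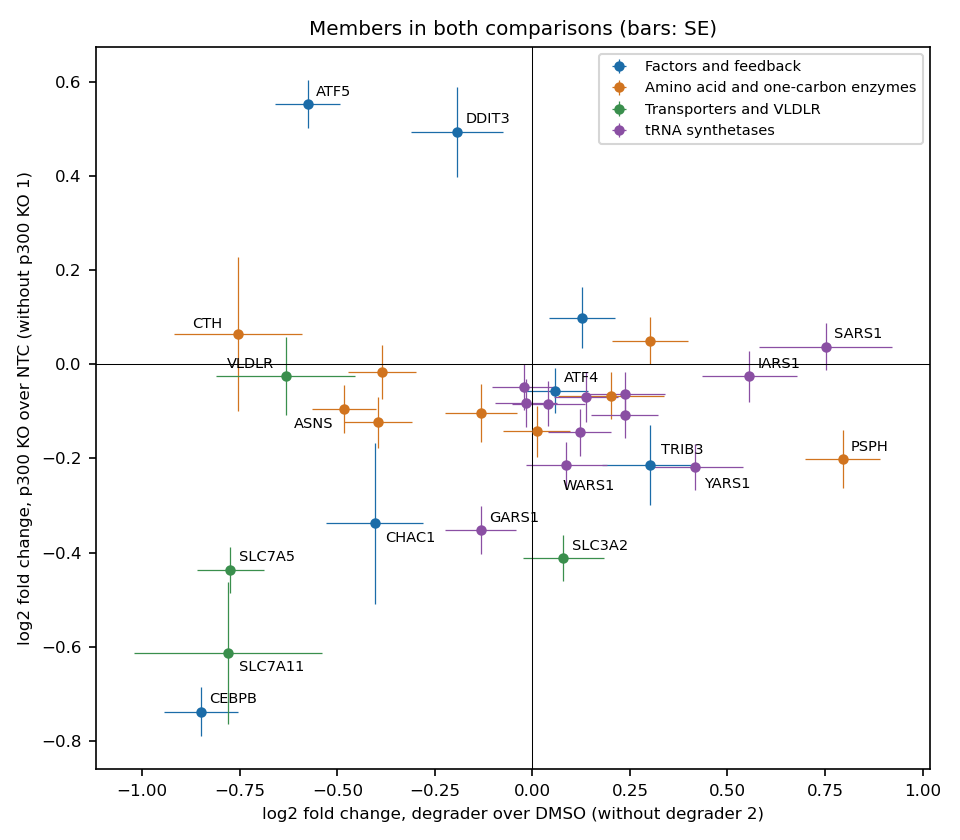
Each point is a member, with its log2 fold change with the degrader (horizontal, without degrader 2) and in the p300 KO (vertical, without p300 KO 1), bars of 1 SE and colour by role. CEBPB and SLC7A5 lie low on both axes, ATF5 at −0.58 ± 0.08 with the degrader and 0.55 ± 0.05 in the KO, and PSPH at 0.80 ± 0.10 and −0.20 ± 0.06.

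Other genes of the pathway were counted by lists of the same kind. With the degrader, 3.12% of all genes tested fell and 1.64% rose (20.3% and 18.2% without degrader 2). In the KO, 10.7% of all genes fell and 6.23% rose (21.8% and 19.1% without p300 KO 1). Of 9 eIF2 kinases, their regulators and phosphatase subunits, none fell and 1 rose with the degrader (3 without degrader 2). It was IMPACT, an inhibitor of the amino acid sensor GCN2 (0.52 ± 0.10, adjusted p = 0.0264), and its call was lost whenever 1 of the other 7 libraries was left out and kept without degrader 2 (0.52 ± 0.10, adjusted p = 0.00127). None passed in the KO with all libraries by edgeR's quasi-likelihood test, and without p300 KO 1, 2 were lower and 3 higher. EIF2AK3, which encodes the ER stress kinase PERK, was measured at 109, 108, 108 and 102 CPM in NTC 1 to 4 and 56.9, 83.8, 82.96 and 102 CPM in p300 KO 1 to 4. All KO libraries lay below all NTC libraries, p300 KO 4 only just, and EIF2AK3 fell without p300 KO 1 (−0.26 ± 0.06, adjusted p = 2.93e-04).

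Of 16 other ATF4 targets, 13 were tested with the degrader, where 3 fell and none rose (3.12% and 1.64% of all genes did). Without degrader 2, 3 targets fell and 2 rose, where 20.3% and 18.2% of all genes did. DDIT4, an inhibitor of the growth kinase mTORC1, was measured at 437, 451, 309 and 405 CPM in DMSO 1 to 4 and 96.98, 50.3, 92.97 and 83.8 CPM in degrader 1 to 4. It fell with a log2 fold change of −2.30 ± 0.23 (adjusted p = 0.00179), with every degrader library below every DMSO library. In the KO it was measured at 467, 482, 443 and 427 CPM in NTC 1 to 4 and 449, 855, 789 and 749.6 CPM in p300 KO 1 to 4. The other 3 KO libraries were above all NTC libraries and p300 KO 1 among them, and DDIT4 rose with a log2 fold change of 0.64 ± 0.17 (adjusted p = 0.0323), a call lost whenever 1 of the other 7 libraries was left out, and 0.81 ± 0.05 without p300 KO 1. STC2, a secreted stress protein, fell in both experiments, with log2 fold changes of −1.18 ± 0.11 (adjusted p = 0.00109) and −0.51 ± 0.07 (adjusted p = 0.00213). In the KO, 3 targets fell and 1 rose of 13 tested, where 10.7% and 6.23% of all genes did. Without p300 KO 1, 7 fell and 1 rose of 14, where 21.8% and 19.1% of all genes did. PYCR1, an enzyme of proline synthesis, fell in the KO with a log2 fold change of −0.62 ± 0.10 (adjusted p = 0.00401, edgeR's quasi-likelihood test).

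Of 10 other amino acid transporters, 9 were tested and none passed with the degrader (4.76% of all genes did). Without degrader 2, 2 fell and 1 rose, where 20.3% and 18.2% of all genes did. In the KO 3 transporters fell and 1 rose, where 10.7% and 6.23% of all genes did. Without p300 KO 1, 5 fell and 2 rose, where 21.8% and 19.1% of all genes did. SLC1A5, the glutamine transporter ASCT2, was measured at 251, 249.5, 250.02 and 270.4 CPM in NTC 1 to 4 and 136, 180.1, 186 and 175 CPM in p300 KO 1 to 4. It fell with a log2 fold change of −0.59 ± 0.10 (edgeR's quasi-likelihood test, adjusted p = 0.00478), with no overlap, and without degrader 2 it rose with the degrader (0.32 ± 0.10, adjusted p = 0.0193). SLC6A9, a glycine transporter, fell in the KO by −0.60 ± 0.13 (adjusted p = 0.0126). Beside the same shares of all genes, none of 11 other cytosolic synthetases and scaffold proteins passed with the degrader (3 rose without degrader 2). In the KO 3 of them fell (4 without p300 KO 1, none higher). These 3 were VARS1 (−0.35 ± 0.07, adjusted p = 0.0112), the scaffold protein AIMP2 (−0.50 ± 0.09, 0.00715) and FARSB (−0.27 ± 0.07, 0.0325), the last with its call lost in 7 leave-outs.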

How the data were processed

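Each library came as its own table of raw counts, deposited by the authors, over 57500 genes. The tools, per the submitters' processing notes, were featureCounts from Subread 1.5.2, STAR 2.5.2b, Trimmomatic 0.36 and DESeq2 1.16.1, and the build was GRCh38. Not given in the sources used here are strand use, the treatment of multi-mapped reads and the annotation release. Of the members, 30 of 32 had the same position in GENCODE 29, and 56410 genes had a symbol.

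Each comparison was fitted on its own 8 libraries, and the difference between the effects on all 16, with edgeR 4.0.16 in R 4.3.3. Genes were kept with filterByExpr, libraries scaled with TMM, and group tested by the quasi-likelihood test. A call is an adjusted p under 0.05, by Benjamini-Hochberg over all genes tested. The SE comes from the log2 fold change and its F statistic (absolute value over root F). The fits were tested on data simulated from the control means, with the same dispersion for every gene and no mitochondria-rich library. That test does not cover the effect of degrader 2 or p300 KO 1. DESeq2 1.42.0 was an alternative test, beside its size factors, total counts, no filter, removal of mitochondrial genes, a replicate block and leaving out each library. Further leave-outs and settings without degrader 2 or p300 KO 1 were chosen after seeing the data. Where a leave-out left out 1 library beside these, at least 2 remained in each group.

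The members and lists were chosen with earlier results of these data known. Values in every library are given for the members called in any fit, except PCK2, TARS1 and MARS1. Up to 4 genes of each other list with the smallest p may be named. IMPACT and EIF2AK3 come from the list of eIF2 kinases. Intervals are 95%. A count of 0 allows up to 3 counts, 0.130 to 0.238 CPM, which covers counting error only. No pair of libraries was a duplicate. Promoter windows are RefSeq's for GRCh38.p14. ALDH1L2, LARS1, PSPH, SHMT2, SLC7A11 and YARS1 were not in that table.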

Additional observations from a re-analysis of the deposited data

Results flagged for a closer look

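In 30 of the 128 member groups of 4 libraries, 1 library lay far from the other 3 by Dixon's test at its 95% critical value, where chance gives about 1 in 20 groups. Of these, 13 were in degrader 2 and 10 in p300 KO 1. In degrader 2 the high values were ATF4 at 776.4 CPM (others 544.4 to 570.2), ATF5 at 686.5 CPM (others 367.1 to 390.6), SLC7A5 at 267.8 CPM (others 192.2 to 202.9), EPRS1 at 590.9 CPM (others 203.5 to 205.3). Its low values were CEBPB at 57.03 CPM (others 73.54 to 76.51), PSAT1 at 46.63 CPM (others 90.63 to 97.22), PSPH at 13.17 CPM (others 27.13 to 28.59), PCK2 at 16.99 CPM (others 44.4 to 45.17), IARS1 at 82.34 CPM (others 168.7 to 177.9), MARS1 at 157.2 CPM (others 165 to 165.4), TARS1 at 68.82 CPM (others 152.6 to 160.6), WARS1 at 49.4 CPM (others 100.5 to 109.7), YARS1 at 88.23 CPM (others 183.8 to 189.1).

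In p300 KO 1 the high values were ATF4 at 504 CPM (others 338.1 to 364.7), DDIT3 at 16.86 CPM (others 10.55 to 11.44), ASNS at 109.4 CPM (others 90.97 to 93.64), EPRS1 at 325.6 CPM (others 175.4 to 193.6). Its low values were PSPH at 24.23 CPM (others 33.09 to 34.64), SHMT2 at 76.17 CPM (others 118 to 121.4), SLC3A2 at 122.5 CPM (others 143 to 144.8), AARS1 at 200.3 CPM (others 283.6 to 295), SARS1 at 78.11 CPM (others 106 to 109.4), TARS1 at 91.09 CPM (others 134.8 to 140.8). EPRS1 and ATF4 were high in both of these libraries and TARS1 and PSPH low in both.

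The other 7 were spread over 5 control libraries. They were PHGDH at 74.45 CPM in DMSO 2 (others 61.77 to 63.62), ALDH1L2 at 92.22 CPM in DMSO 3 (others 77.22 to 77.77), PHGDH at 45.78 CPM in NTC 2 (others 40.63 to 40.82), PSPH at 35.85 CPM in NTC 3 (others 39.75 to 40.08), ALDH1L2 at 51.1 CPM in NTC 4 (others 55.55 to 55.97), VLDLR at 23.46 CPM in NTC 2 (others 18.21 to 18.87), CARS1 at 106.4 CPM in NTC 2 (others 95.95 to 97.3). NTC 2 held 3 of them.

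The KO effect and the degrader effect differed, by edgeR's quasi-likelihood test of the difference itself, in ATF5 (0.86), DDIT3 (0.88), ASNS (0.46) and CTH (0.96), each as log2 of the KO effect minus the degrader effect.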

How the results depend on the processing

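Degrader 2 and p300 KO 1 decided most counts. Leaving out 1 library gave 197 to 6278 called genes with the degrader (755 with all), with 0 to 10 members lower and 0 to 6 higher, and the highest values were those without degrader 2. In the KO it gave 1542 to 7246 genes (2944 with all), 4 to 11 members lower and 1 to 2 higher, the highest without p300 KO 1 for genes and lower members. For the difference it gave 766 to 4611 genes and 1 to 11 members, and without both libraries 5901 genes and 17 members. Total counts gave 164 genes with 0 members lower (degrader), 1265 genes with 2 lower and 0 higher (KO), 319 genes and 0 members (difference), and 10 members higher with the degrader without degrader 2. DESeq2's Wald test gave 1796 genes and 1 member higher with the degrader, and 2095 genes and 8 members in the difference. No filter gave 394 genes and 1 member lower, and 585 genes and 1 member in the difference. Same-numbered replicates did not deviate together (correlations −0.44 to 0.13 and −0.17 to 0.02). The group means behind these deviations included degrader 2 and p300 KO 1, so the correlations cannot show whether the numbers pair the samples. With the replicate block, 24 genes and 0 members lower were called with the degrader, 1304 genes in the KO, and 306 genes and 1 member in the difference.

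Direction turned for members that passed no test in these fits with all libraries. Leaving out 1 library moved the log2 fold change with the degrader from −0.23 to 0.0108 (PSAT1), −0.24 to 0.0790 (SLC3A2), −0.0358 to 0.24 (TARS1), −0.18 to 0.0872 (WARS1) and −0.0218 to 0.69 (EPRS1), and in the KO from −0.10 to 0.0374 (SARS1), −0.0559 to 0.16 (ATF4) and −0.0481 to 0.30 (EPRS1). Total counts gave −0.0117 for MARS1 with the degrader, and −0.12 for MTHFD2, −0.0135 for CTH, −0.13 for ATF4 and −0.0456 for EPRS1 in the KO. The replicate block gave −0.0385 for TARS1 with the degrader. The cause was not tested. Without degrader 2, 11 of 16 members called kept their call in every further leave-out of 1 library, and without p300 KO 1, 10 of 13. Genes with few counts, such as SLC7A11 and CTH, are limited by depth.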

Other observations

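Mitochondrial tRNA synthetases formed a further list that holds no members. Of 17 tested, none passed with the degrader by edgeR's quasi-likelihood test with all libraries (4.76% of all genes did). Without degrader 2, 5 rose, where 18.2% of all genes rose. In the KO 1 fell and 1 rose, where 10.7% and 6.23% of all genes did. Without p300 KO 1, 2 fell and 4 rose, where 21.8% and 19.1% of all genes did. AARS2, the mitochondrial alanyl-tRNA synthetase, was measured at 21.04, 21.2, 19.5 and 20.5 CPM in NTC 1 to 4 and 21.03, 32.9, 33.04 and 33.5 CPM in p300 KO 1 to 4. p300 KO 1 lay among the NTC libraries and the other 3 above them. It rose with a log2 fold change of 0.56 ± 0.14 (Benjamini-Hochberg adjusted p = 0.0224), a call lost whenever 1 of the other 7 libraries was left out, and 0.69 ± 0.07 without p300 KO 1 (adjusted p = 6.82e-12). VARS2, the valyl enzyme, fell with a log2 fold change of −0.35 ± 0.08 (adjusted p = 0.0138).

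Of 12 ER folding genes of the ATF6 and XBP1 arms, 1 fell with the degrader with all libraries, where 3.12% of all genes fell. Without degrader 2, 8 rose and 2 fell with a median log2 fold change of 0.30. There 18.2% of all genes rose and 20.3% fell, with a median of −0.04. In the KO, 2 fell and none rose, where 10.7% and 6.23% of all genes did. Without p300 KO 1, 2 fell and 1 rose, where 21.8% and 19.1% of all genes did. ERN1, the ER stress sensor that splices XBP1, was measured at 91.1, 90.1, 73.02 and 86.96 CPM in DMSO 1 to 4 and 57.1, 51.3, 55.3 and 48.6 CPM in degrader 1 to 4. All degrader libraries lay below all DMSO libraries, and ERN1 fell with a log2 fold change of −0.68 ± 0.12 (adjusted p = 0.0156) with the degrader, a call lost in 6 leave-outs, and −0.37 ± 0.07 (adjusted p = 0.00876) in the KO. SDF2L1, an ER chaperone partner, had 0.47 ± 0.11 (adjusted p = 0.00408) with the degrader without degrader 2 and −0.20 ± 0.05 (adjusted p = 0.00116) in the KO without p300 KO 1. Of 14 other one-carbon and cysteine genes, none passed with the degrader (4.76% of all genes did). Without degrader 2, 2 fell and 2 rose, where 20.3% and 18.2% of all genes did. Without p300 KO 1, 3 fell and 3 rose, where 21.8% and 19.1% of all genes did. With all libraries 1 fell in the KO, where 10.7% of all genes fell. The 1 was MTHFD1L, the mitochondrial formyltetrahydrofolate synthetase (−0.47 ± 0.12, adjusted p = 0.0297), whose call was lost in 5 leave-outs.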
